A study of Mus musculus with 6 samples.

Results

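Serpins are a family of proteins of which most block serine or cysteine proteases. An inhibitory serpin offers an exposed loop as bait, and when the protease cuts the loop the serpin changes shape and traps the enzyme in a covalent complex, so each molecule works once. The liver secretes many of them into plasma, where they restrain neutrophil proteases, clotting, fibrinolysis and complement, and some serpins have lost inhibition and carry hormones or fold collagen instead. The 31 serpin genes described here were chosen as a list of names and span clades A to I, with 18 in clade A. Each was read from its brightest probe set that the platform annotation assigns to that gene alone. Of the 31 genes, 22 had such a probe set, and 17 of these passed the filter (log2 above 4 in 3 or more of 6 arrays), out of 8554 genes tested in all. Each of the 17 was over that level in all 6 arrays, so none entered the test through a single group.

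The other 14 genes were not tested. Serpina1a, Serpina1d and Serpina1e had only probe sets shared with other Serpina1 genes. Serpina3i, Serpina9, Serpinb1a, Serpinb2 and Serpini1 had a probe set of their own that missed the filter. No probe set is listed here for Serpina3c, Serpina3f, Serpina3g, Serpina3k, Serpina3m or Serpine2, and these 6 were not analysed here.

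The Cre plus group (3 arrays, A, B and C) is whole liver from C57BL/6 mice that carry floxed Socs3 alleles (Socs3 fl/fl) and a Cre recombinase transgene (Alb-Cre+) whose albumin promoter directs excision to hepatocytes. The Cre minus group (3 arrays, also A, B and C) is whole liver from Socs3 fl/fl, Alb-Cre- littermates, so the floxed allele is common to both groups and Cre is not. All livers were taken 18 hours after a partial hepatectomy, an operation that removes most of the liver and leaves a remnant that regrows, and 2 ug of total RNA was labelled for each 1-colour Affymetrix array. The sources used here give no age, no array of unoperated liver and none of Cre without floxed Socs3, and the labels do not say that each array is a separate mouse. The p-values measure only how far these arrays spread, which may be partly technical. Values of a group are listed in the order A, B, C throughout. The Socs3 protein damps cytokine signals that run through STAT3, a pathway by which IL-6 raises the output of many plasma protease inhibitors in hepatocytes, and the comparison asks how serpin expression in the regenerating liver differs where hepatocytes lack that brake. In whole tissue, fewer cells of a type and less RNA per cell cannot be told apart.

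Socs3 itself was at 7.44, 6.69 and 7.47 (log2) in Cre plus, against 9.09, 9.30 and 9.24 in Cre minus, on its brightest probe set. All Cre plus arrays lay below all Cre minus arrays, although over all genes the difference of -2.01 ± 0.22 (SE) had an adjusted p = 0.0732 by limma and did not pass. That probe set and the gene's other kept one are both of the _x_at kind, which can bind more than 1 transcript. Its remaining probe set missed the filter, at 3.02 to 3.45 in Cre plus and 3.81 to 4.45 in Cre minus. Markers of hepatocytes were all detected, with a mean over the 10 of 13.1 to 13.3 in Cre plus and 13.2 in Cre minus, while 8 of 8 measured lymphocyte markers and 5 of 5 mesothelial markers missed the filter. Kupffer cell and macrophage markers averaged 7.22 to 7.42 in Cre plus and 7.60 to 7.71 in Cre minus over 14 genes. The arrays correlated at 0.987 to 0.990 within Cre plus and at 0.995 within Cre minus over the genes tested. Values near 15 lie close to the top of the scale, which reached 15.7 in this table, and changes there are compressed. Array number limits the precision, and levels are compared only within a probe set.

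The alpha-1-antitrypsin genes, 3 of which have shared probe sets only, are close copies of each other. This inhibitor of neutrophil elastase is encoded in C57BL/6 mice by the 5 neighbouring genes Serpina1a to Serpina1e. Their RefSeq promoter windows (GRCm38.p6, 250 bases before to 50 after each start, minus strand of chromosome 12) were 91.4% to 97.6% identical over their aligned bases in the 10 pairs. The lines below give, 5′ to 3′, a run of 55 bases upstream of the start that is identical in all 5 genes, in capitals, with the 40 bases that precede it in lower case, where the copies differ. They lie at chr12:103863625-103863719 for Serpina1a, chr12:103738200-103738294 for Serpina1b, chr12:103904962-103905056 for Serpina1c, chr12:103773634-103773728 for Serpina1d and chr12:103956960-103957054 for Serpina1e.
Serpina1a: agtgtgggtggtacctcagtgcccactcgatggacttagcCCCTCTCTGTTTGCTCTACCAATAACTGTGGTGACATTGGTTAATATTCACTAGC
Serpina1b: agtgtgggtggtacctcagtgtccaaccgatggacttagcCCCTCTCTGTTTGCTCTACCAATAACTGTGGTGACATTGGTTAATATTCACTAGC
Serpina1c: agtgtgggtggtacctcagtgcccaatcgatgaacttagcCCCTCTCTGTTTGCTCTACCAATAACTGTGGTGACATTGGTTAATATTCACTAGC
Serpina1d: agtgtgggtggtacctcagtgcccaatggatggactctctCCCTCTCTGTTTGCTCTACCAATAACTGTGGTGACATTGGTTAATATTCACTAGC
Serpina1e: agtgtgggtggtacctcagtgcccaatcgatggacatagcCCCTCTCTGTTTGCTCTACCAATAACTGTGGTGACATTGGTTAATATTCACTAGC

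Among members with a promoter window and a test, the sequences below are shown because their genes differed in outcome. Serpina12 and Serpind1 were lower in Cre plus, Serpina3n was higher by a small amount, and Serpina11 was level between the groups. The members that were higher by more are not shown: Serpina6 and Serpina10 had no window listed, and Serpinb9 was left out. Each line gives the 250 bases before the annotated start, 5′ to 3′ on the gene's strand, from RefSeq (GRCm38.p6). The windows are chr12:104044444-104044693 (minus strand) for Serpina12, chr16:17331121-17331370 (plus strand) for Serpind1, chr12:104406458-104406707 (plus strand) for Serpina3n and chr12:103989958-103990207 (minus strand) for Serpina11. Capitals mark a match to a STAT motif (TTCNNNGAA, which reads the same on both strands) or to a C/EBP motif (TTGCNNAA, or TTNNGCAA on the other strand), the motifs of factors known to act on acute phase genes. Serpina12 holds a C/EBP match that begins 90 bases before its start, Serpina11 a STAT match that begins 51 bases before its start, and the other pair neither.
Serpina12: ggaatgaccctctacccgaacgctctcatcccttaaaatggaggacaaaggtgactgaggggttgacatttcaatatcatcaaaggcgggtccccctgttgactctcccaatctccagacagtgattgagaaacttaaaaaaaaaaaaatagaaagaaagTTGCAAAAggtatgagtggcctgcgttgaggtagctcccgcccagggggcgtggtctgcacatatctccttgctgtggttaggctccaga
Serpind1: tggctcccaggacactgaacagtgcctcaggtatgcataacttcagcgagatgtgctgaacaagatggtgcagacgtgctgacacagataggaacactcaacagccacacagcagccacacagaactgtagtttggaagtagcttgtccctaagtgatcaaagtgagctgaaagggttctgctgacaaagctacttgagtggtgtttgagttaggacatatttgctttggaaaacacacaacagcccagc
Serpina3n: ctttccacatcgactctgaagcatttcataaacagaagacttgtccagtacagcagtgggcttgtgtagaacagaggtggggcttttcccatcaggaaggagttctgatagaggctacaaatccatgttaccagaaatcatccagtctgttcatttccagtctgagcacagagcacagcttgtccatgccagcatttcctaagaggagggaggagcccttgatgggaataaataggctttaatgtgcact
Serpina11: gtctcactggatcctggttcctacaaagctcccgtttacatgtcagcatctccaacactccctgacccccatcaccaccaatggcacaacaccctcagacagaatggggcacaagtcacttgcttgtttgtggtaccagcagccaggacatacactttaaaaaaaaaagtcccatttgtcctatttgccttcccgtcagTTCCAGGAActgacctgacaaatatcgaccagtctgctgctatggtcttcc

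Promoter windows were listed for 24 of the 31 genes, 29 windows in all. Of the windows' 250 upstream bases, 8 held a STAT match (27.6%, in 6 genes) and 10 a C/EBP match (34.5%, in 7 genes), against 7.02% and 9.56% of the 32851 windows of all genes. The member windows are not independent, since neighbouring genes are copies and some genes have overlapping windows. Apart from Serpina11, the STAT matches lay in Serpina3f, Serpina3g, Serpina3i, Serpinb2 and Serpinb6a. Of the 14 tested genes with a window, the STAT motif was in Serpina11 and Serpinb6a, with log2 fold changes of -0.01 and 0.12. The C/EBP motif was in Serpina1b, Serpina7 and Serpina12, with log2 fold changes of -0.06, -0.15 and -0.80, of which Serpina7 changed sign without Cre minus C. A match describes letters in this window and says nothing about binding.

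Over the whole group, no serpin gene passed limma's adjusted p under 0.05 for Cre plus against Cre minus (background 0.0234% of the genes tested). The members' adjusted p-values ran between 0.171 (Serpina10) and 0.976 (Serpina11). At an unadjusted p under 0.05 there were 3 of 17 members (17.6%, background 14.8%), with Serpina10 higher (background of higher genes 6.62%) and Serpina12 and Serpind1 lower (background of lower genes 8.21%). The groups did not overlap in 5 of 17 members (29.4%, background 21.2%), with Serpina3n, Serpina6 and Serpina10 entirely higher in Cre plus (background 9.21%) and Serpina12 and Serpind1 entirely lower (background 11.9%). Higher values in Cre plus were seen for 10 of 17 members (58.8%, background 46.5%), and the median log2 fold change was 0.03 over the members and -0.01 over all genes. These shares lay near the background, so no result about the serpins is read from them. The count at an unadjusted p under 0.05 depended on single arrays: 4 members were higher without Cre plus B (Serpina3n, Serpina6 and Serpinb9 beside Serpina10), 2 without Cre plus A (Serpina10 and Serpinh1), and 1 (Serpina12) was lower without Cre plus A or without Cre plus C. With any single Cre minus array (A, B or C) left out, 0 were lower by limma's unadjusted p.

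**Figure D1:**
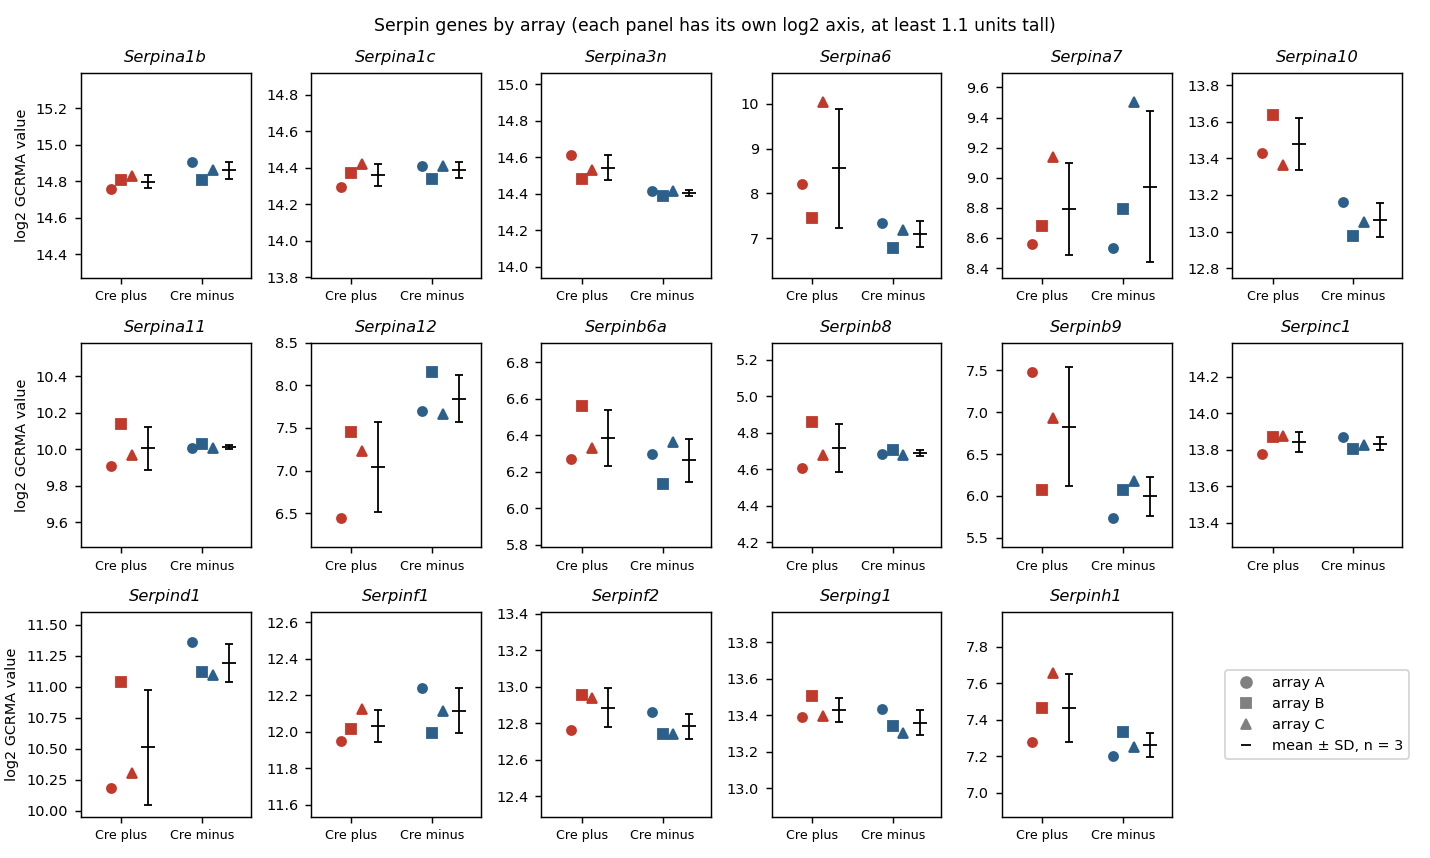
Log2 GCRMA value of each of the 17 serpin genes tested (vertical axis, its own range in each panel) in the 3 Cre plus arrays (red, left) and the 3 Cre minus arrays (blue, right), with black marks for mean ± SD (n = 3). Serpina6, Serpina12, Serpinb9 and Serpind1 show wide Cre plus spreads with array B nearest to Cre minus, while in Serpina10 array B is the highest.

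The members fell into a large group with small differences and a few with larger ones. In 12 of the 17 genes the log2 fold change was under 0.25 in size, and the largest of these was 0.20 (Serpinh1). The other 5, split off after the values were seen, were 0.42 or more in size: Serpina6, Serpina10 and Serpinb9 higher, Serpina12 and Serpind1 lower. In 11 of the 17 genes the 95% interval of the log2 fold change lay within 0.5 either way, so larger differences lay outside the interval there. The SD was larger in Cre plus than in Cre minus for 13 of the 17 members, against 63.1% of all genes tested.

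**Figure D2:**
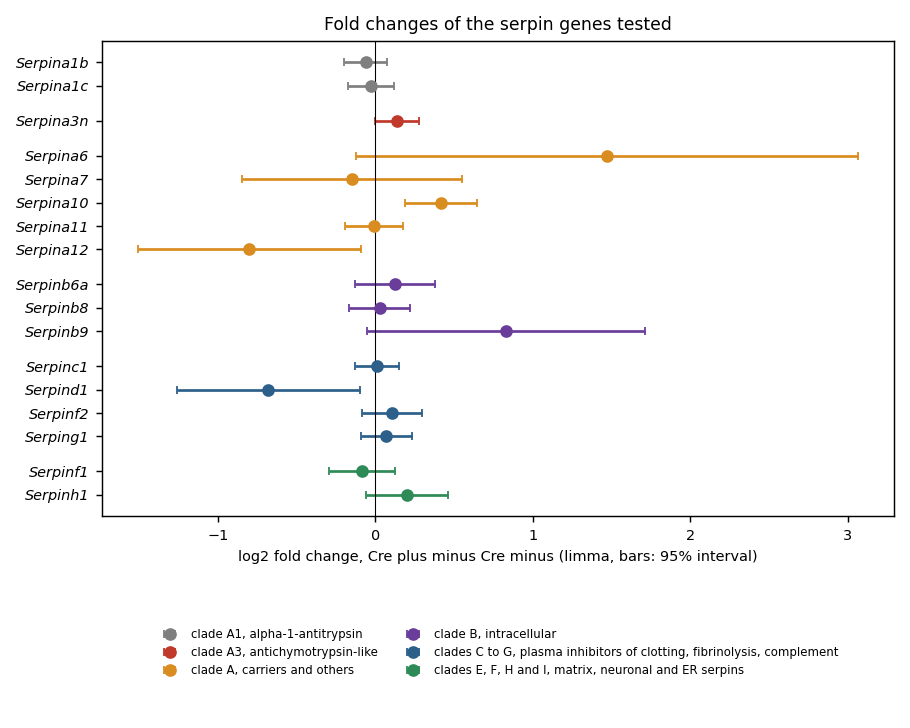
Log2 fold change of each tested serpin gene, Cre plus minus Cre minus (horizontal axis), with limma's 95% interval as bars, coloured by clade or role. Serpina10 lies above 0 with its whole interval, Serpina12 and Serpind1 below, and the intervals of Serpina6 (-0.13 to 3.07) and Serpinb9 (-0.05 to 1.71) are the widest of the higher genes and reach past 0.

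The alpha-1-antitrypsin genes did not differ beyond the spread between arrays. Serpina1b was at 14.76, 14.81 and 14.83 in Cre plus, against 14.91, 14.81 and 14.86 in Cre minus. The groups overlapped, with a log2 fold change of -0.06 ± 0.06 (SE, 95% interval -0.20 to 0.08), and a dimmer probe set of this gene gave -0.08 ± 0.06. Serpina1c was at 14.30, 14.37 and 14.42 in Cre plus, against 14.41, 14.34 and 14.41 in Cre minus, a log2 fold change of -0.03 ± 0.06. The probe set that Serpina1a and Serpina1d share was at 15.15, 15.24 and 15.12 in Cre plus, against 15.15, 15.26 and 15.09 in Cre minus, a difference of 0.00 ± 0.07. The probe set shared by Serpina1e with Serpina1b and Serpina1c was the dimmest, at 12.18, 12.64 and 12.23 in Cre plus, against 12.35, 12.61 and 12.18 in Cre minus. Its difference was -0.03 ± 0.17 (95% interval -0.44 to 0.38), and in both groups array B was the highest. With such close copies, and with most of these values near the top of the scale, a change in 1 gene of the 5 could not be read from these probe sets.

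Serpina3n, an acute phase relative of human antichymotrypsin, was the only gene of its 7-member subfamily with a test. Its values were 14.62, 14.48 and 14.53 in Cre plus, against 14.42, 14.39 and 14.41 in Cre minus. All Cre plus arrays lay above all Cre minus arrays, by little, with a log2 fold change of 0.14 ± 0.06 (95% interval -0.00 to 0.28, limma's adjusted p = 0.348). After quantile normalization the log2 fold change was 0.08. The array values are as near the top of the scale as those of Serpina1c, where changes are compressed. The Cre minus arrays were close together (SD 0.02) and the Cre plus arrays less so (SD 0.07). Serpina3i was near the bottom of the scale in 5 arrays, at 2.21 to 2.22, and at 2.46 in Cre plus A.

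Of the hormone carriers, Serpina6 had the widest spread of the genes tested and Serpina7 did not. Serpina6 encodes corticosteroid-binding globulin, which carries glucocorticoids in plasma and does not inhibit proteases. It was at 8.22, 7.44 and 10.03 in Cre plus, against 7.34, 6.77 and 7.17 in Cre minus. The groups did not overlap, but Cre plus B lay just above the highest Cre minus array and Cre plus C was far above all others. The log2 fold change was 1.47 ± 0.65 (95% interval -0.13 to 3.07, adjusted p = 0.362), a 2.77-fold higher signal, and it was 0.74 without Cre plus C and 2.03 without Cre plus B. The SD was 1.33 in Cre plus and 0.30 in Cre minus. Serpina7, the thyroxine-binding globulin, overlapped fully, at 8.56, 8.68 and 9.14 in Cre plus, against 8.53, 8.79 and 9.50 in Cre minus, with array C the highest of both groups. Its log2 fold change of -0.15 ± 0.28 became 0.13 without Cre minus C. The glucocorticoid receptor gene Nr3c1 was at 8.53, 8.63 and 8.24 in Cre plus, against 8.76, 8.74 and 8.54 in Cre minus, a log2 fold change of -0.22 ± 0.12 whose groups overlapped.

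Serpina10 had the smallest p of the family. It encodes the protein Z-dependent protease inhibitor, which blocks activated factor X in the presence of protein Z. It was at 13.43, 13.64 and 13.36 in Cre plus, against 13.16, 12.98 and 13.05 in Cre minus. All Cre plus arrays lay above all Cre minus arrays, and the gap between the nearest arrays was wider than the SD of either group. The log2 fold change was 0.42 ± 0.09 (95% interval 0.19 to 0.65, adjusted p = 0.171), a 1.33-fold higher signal, and leaving out 1 array at a time gave 0.34 to 0.47. Its only probe set is of the _s_at kind, which can bind more than 1 transcript. Its cofactor gene Proz was at 9.83, 10.53 and 10.24 in Cre plus, against 10.40, 10.23 and 10.31 in Cre minus, and its target F10 had a log2 fold change of -0.00 ± 0.09. Neither the cofactor nor the target separated the groups.

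Serpina12, known as vaspin and first described as a product of visceral fat in rats, was lower in all Cre plus arrays. It was at 6.44, 7.45 and 7.23 in Cre plus, against 7.70, 8.16 and 7.66 in Cre minus. The groups did not overlap, and Cre plus A was the lowest of all. The log2 fold change was -0.80 ± 0.29 (95% interval -1.51 to -0.09, adjusted p = 0.293), which puts Cre plus at 57.5% of Cre minus. Without Cre plus A the log2 fold change was -0.50. The gene's other probe set was near the bottom of the scale, at 2.39 to 2.54 in Cre plus and 2.42 to 2.43 in Cre minus. Serpina11 was at 9.91, 10.14 and 9.97 in Cre plus, against 10.01, 10.03 and 10.01 in Cre minus, a log2 fold change of -0.01 ± 0.07. Serpina9, which in humans marks germinal centre B cells, was near the bottom of the scale, at 3.28 to 3.33 in Cre plus and 3.33 to 3.34 in Cre minus.

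All clade A members but Serpina7, which is on chromosome X, lie in a cluster on mouse chromosome 12. Between Serpina10 and Serpina3n the RefSeq table (GRCm38.p6) lists 23 protein-coding genes, both ends included, of which 17 are members and 7 were tested. Serpina10 and Serpina6, next to each other at one end of the cluster, were both entirely higher in Cre plus. The alpha-1-antitrypsin genes and Serpina11, in the middle, overlapped between groups, Serpina12 beyond them was entirely lower, and Serpina3n at the other end was entirely higher by a small amount. The differences thus ran in both directions within the cluster, and no test of position was made.

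**Figure D3:**
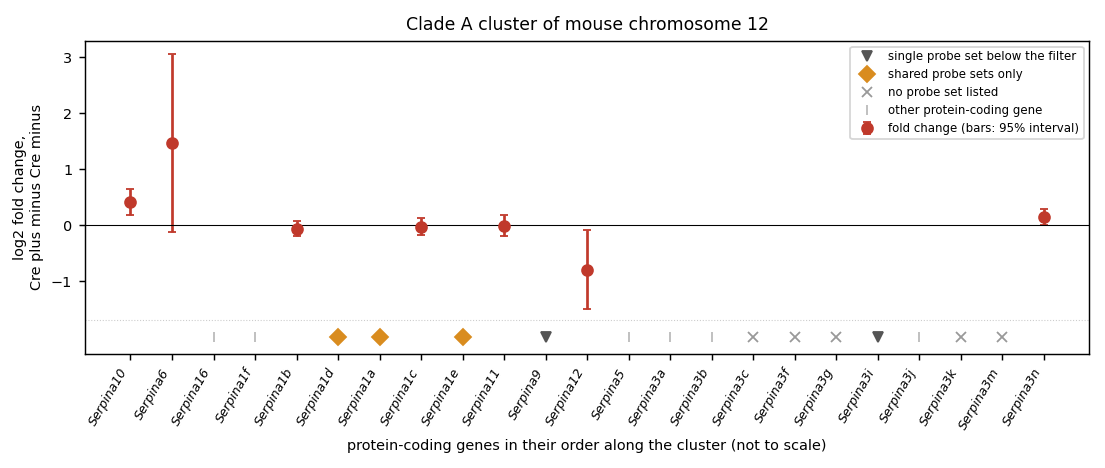
Log2 fold change, Cre plus minus Cre minus (vertical axis), of the 7 tested genes with 95% intervals, set out in the order of the 23 protein-coding genes of the chromosome 12 cluster (horizontal axis, not to scale). Symbols below the dotted line mark genes with no fold change here, by the reason given in the key, and the tested genes run between -0.80 (Serpina12) and 1.47 (Serpina6).

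The plasma serpins of clades C, D, F and G act on clotting, fibrinolysis and complement, and 1 of these 4 genes separated the groups, as 21.2% of all genes did. Serpind1 encodes heparin cofactor II, an inhibitor of thrombin. It was at 10.19, 11.04 and 10.31 in Cre plus, against 11.37, 11.12 and 11.09 in Cre minus. All Cre plus arrays were lower, but Cre plus B lay only just below the lowest Cre minus array. The log2 fold change was -0.68 ± 0.24 (95% interval -1.26 to -0.10, adjusted p = 0.283), which puts Cre plus at 62.4% of Cre minus. Without Cre plus B it was -0.94 ± 0.11, with an adjusted p of 0.0674 from limma that also did not pass.

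The other plasma inhibitors were close to level. Serpinc1, the gene of antithrombin and the main brake on thrombin and activated factor X, was at 13.78, 13.87 and 13.87 in Cre plus, against 13.87, 13.80 and 13.82 in Cre minus. The values interleaved, and the log2 fold change was 0.01 ± 0.06 (95% interval -0.13 to 0.15). Serpinf2, the gene of the main plasmin inhibitor, was at 12.76, 12.96 and 12.94 in Cre plus, against 12.86, 12.74 and 12.74 in Cre minus, a log2 fold change of 0.10 ± 0.08. Serping1, the gene of the inhibitor of the first complement component and of plasma kallikrein, was at 13.39, 13.50 and 13.39 in Cre plus, against 13.43, 13.34 and 13.30 in Cre minus, a log2 fold change of 0.07 ± 0.07. For both genes Cre minus A lay within the Cre plus range, and the other Cre minus arrays lay below all Cre plus arrays. After quantile normalization their log2 fold changes were 0.06 (Serpinf2) and 0.03 (Serping1). Thrombin's own gene F2 was at 13.19, 13.27 and 13.14 in Cre plus, against 13.26, 13.21 and 13.22 in Cre minus, and plasminogen (Plg) had a log2 fold change of -0.09 ± 0.07.

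Clade B serpins stay inside cells and guard them against proteases from their own granules or from killer cells. Serpinb9, the inhibitor of granzyme B, had the highest fold change of the clade, with the Cre plus arrays far apart. It was at 7.48, 6.07 and 6.93 in Cre plus, against 5.73, 6.06 and 6.18 in Cre minus. Cre plus B lay inside the Cre minus range, and the log2 fold change was 0.83 ± 0.36 (95% interval -0.05 to 1.71, adjusted p = 0.357), or 1.21 ± 0.22 without Cre plus B (adjusted p = 0.0981) and 0.50 without Cre plus A. A second Serpinb9 probe set was near the bottom of the scale, at 3.78 in Cre plus A and at 3.33 to 3.35 in the other 5 arrays. Its target Gzmb was at 2.38 to 2.40 in all 6 arrays.

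Some neutrophil markers stood out in the array where Serpinb9 was highest, and most macrophage markers were lower in Cre plus. The neutrophil marker S100a8 was at 10.10, 8.19 and 8.54 in Cre plus, against 8.54, 8.39 and 8.44 in Cre minus, so it stood out in Cre plus A, where Serpinb9 was highest, and not in Cre plus C. S100a9 (9.21 in Cre plus A, 7.64 to 7.90 in the other arrays) and Ngp (3.59, against 2.46 to 2.47) shared this. Mpo, Elane, Csf3r, Cxcr2 and Camp did not, and each was at its lowest of the 6 arrays in Cre plus A. The 8 measured neutrophil markers averaged 4.54, 4.02 and 4.05 in Cre plus and 4.04 to 4.16 in Cre minus, with 6 of the 8 (Mpo, Elane, Csf3r, Cxcr2, Ngp and Camp) below the filter. The 8 measured lymphocyte markers averaged 2.89 to 2.93 in Cre plus and 2.93 to 2.95 in Cre minus, all below the filter, and the macrophage marker average was lower in Cre plus, as given above. Of the 13 macrophage markers tested 12 were lower and 1 higher, 8 and 1 of them at an unadjusted p below 0.05, and 0 passed limma's adjusted threshold. The shares over all genes were 8.21% lower and 6.62% higher at that p, with 46.5% higher in value. The higher macrophage marker was Mpeg1, a gene of phagocytes, with a log2 fold change of 0.42. The part of immune cells in the Serpinb9 values was not tested.

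The remaining clade B genes showed little. Serpinb6a, an inhibitor of cathepsin G, was at 6.27, 6.56 and 6.33 in Cre plus, against 6.29, 6.13 and 6.36 in Cre minus, a log2 fold change of 0.12 ± 0.10. Serpinb8, which in humans inhibits the proprotein convertase furin, was at 4.61, 4.86 and 4.68 in Cre plus, against 4.68, 4.71 and 4.67 in Cre minus, close to the filter, with a log2 fold change of 0.03 ± 0.08. Both overlapped between groups, with Cre plus B the highest of the 6 arrays in each. Serpinb1a, an inhibitor of neutrophil elastase, lay at 3.32 to 3.44 in Cre plus and 3.34 to 3.44 in Cre minus. Serpinb2, the plasminogen activator inhibitor of macrophages, lay at 2.40 to 2.42 in Cre plus and 2.42 to 2.43 in Cre minus. Neither had signal over the filter in these livers, which bounds nothing about single cell types.

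The last members belong to matrix, neurons and the endoplasmic reticulum. Serpinh1 encodes the collagen chaperone HSP47. It was at 7.28, 7.46 and 7.65 in Cre plus, against 7.20, 7.33 and 7.25 in Cre minus. Cre plus B and C were above all Cre minus arrays and Cre plus A was not, giving a log2 fold change of 0.20 ± 0.11 (95% interval -0.06 to 0.46) that was 0.11 without Cre plus C, and the gene's other kept probe set gave 0.10 ± 0.19. Its client genes Col3a1 (7.56, 7.35 and 8.37 in Cre plus, against 7.41, 7.38 and 7.60 in Cre minus) and Col1a1 (4.26, 3.98 and 4.65 in Cre plus, against 4.28, 4.39 and 4.42 in Cre minus), picked after their values were seen, were also highest in Cre plus C. Other listed collagen genes did not all share this. Col4a2 was highest in Cre plus A, at 7.60, 7.43 and 7.46 in Cre plus, against 7.27, 7.31 and 7.44 in Cre minus. Col4a1 was level between Cre plus A and C, at 10.11 in both, and Col1a2 missed the filter. The 12 stellate cell and fibroblast markers averaged 6.59, 6.44 and 6.74 in Cre plus, against 6.48, 6.54 and 6.61 in Cre minus, and their part in the Serpinh1 values was not tested. Serpinf1, the gene of pigment epithelium-derived factor, a secreted serpin that restrains vessel growth, was at 11.95, 12.02 and 12.12 in Cre plus, against 12.24, 11.99 and 12.11 in Cre minus. Its log2 fold change was -0.08 ± 0.09, and -0.07 ± 0.08 on a second probe set. Serpini1, neuroserpin, an inhibitor of tissue plasminogen activator in the brain, was at 3.35 to 3.41 in Cre plus and 3.39 to 3.42 in Cre minus on its brightest probe set.

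Among the members with larger differences, Cre plus arrays A and C mostly deviated more than array B, by unlike amounts. Measured from the Cre minus mean, the 5 larger members deviated least in Cre plus B for Serpina6 (0.35, against 1.13 in A and 2.94 in C), Serpina12 (-0.39, against -1.40 in A and -0.61 in C), Serpinb9 (0.08, against 1.49 in A and 0.93 in C) and Serpind1 (-0.15, against -0.88 in C and a still lower value in A). Serpina10 was the exception, with 0.58 in Cre plus B, 0.37 in A and 0.30 in C. Cre plus B thus lay nearest to the Cre minus livers in 4 of these 5 genes. The 5 were picked by size, and the share over all genes is not given here, so no result is read from this count. The correlation of Cre plus B with the Cre minus arrays over all genes was also the highest of the Cre plus arrays. Its Socs3 value on the brightest probe set was the lowest of the 6 arrays. On the dimmest Socs3 probe set, which missed the filter, Cre plus A was the lowest, at 3.02 against 3.37 in Cre plus B.

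Related genes gave a setting for these values. Angiotensinogen (Agt), a non-inhibitory serpin of clade A outside the 31, was at 12.88, 11.95 and 12.85 in Cre plus, against 12.16, 12.53 and 11.97 in Cre minus, with overlapping groups. Of the 33 further serpins listed only 3 were tested by limma, with 0 at an unadjusted p below 0.05 and 0 past the adjusted threshold. Serpinb6b, singled out after its values were seen, missed the filter with 3.71, 2.71 and 6.40 in Cre plus, against 2.80, 2.99 and 2.96 in Cre minus, high in Cre plus C. Among 21 proteases that serpins inhibit, 16 had lower values and 5 higher, of which 3 of the lower and 0 of the higher had an unadjusted limma p below 0.05, and 0 passed after adjustment. Over all genes 46.5% were higher and 8.21% were lower at that p. The lowest was Klkb1, the gene of plasma kallikrein and a target of the Serping1 product, at 7.76, 8.45 and 8.10 in Cre plus, against 9.53, 8.93 and 9.23 in Cre minus, a log2 fold change of -1.13 ± 0.22 (adjusted p = 0.146). The protease genes Hgfac (-0.35 ± 0.10), the activator of hepatocyte growth factor, and Hpn (-0.28 ± 0.11), the membrane protease hepsin, were the others. Klkb1 was thus lower in every Cre plus array while the gene of its inhibitor was level.

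Among protease inhibitors of other families, 5 were entirely higher in Cre plus and 1 entirely lower (9.21% and 11.9% over all genes). A2m, Wfdc2 and Cstb were among the 5, and the 1 was Ahsg. Of 18 tested, 10 were higher and 8 lower in value, of which 3 and 1 had an unadjusted p below 0.05 (6.62% and 8.21% over all genes) and 0 passed after adjustment. A2m, the broad protease trap alpha-2-macroglobulin, was at 13.64, 13.72 and 13.44 in Cre plus, against 12.08, 12.66 and 12.17 in Cre minus (log2 fold change 1.30 ± 0.17, adjusted p = 0.0786). Wfdc2, a small secreted protein with protease inhibitor domains, was at 9.18, 7.27 and 8.07 in Cre plus, against 6.45, 6.23 and 6.45 in Cre minus (1.80 ± 0.46, adjusted p = 0.196). Cstb, a cathepsin inhibitor, had 0.17 ± 0.07 and Ahsg, the gene of fetuin-A, -0.27 ± 0.08.

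Further lists bear on how serpins are made and used. All 20 tested acute phase and STAT3-linked genes had higher values in Cre plus, the median log2 fold change being 0.26, and 7 had an unadjusted p below 0.05. Over all genes 46.5% were higher and 6.62% were higher at that p, and the list was chosen with earlier results known, so its direction is no independent evidence. Of these 7, the metalloreductase gene Steap4 rose past the adjusted threshold (1.25 ± 0.09, adjusted p = 0.0417), a call lost with no filter, with the replicate block and with any single Cre minus array left out, where 0 genes passed by limma, and the next by p, Cebpb (0.51 ± 0.07), Stat3 (0.52 ± 0.08) and the oncostatin M receptor gene Osmr (1.05 ± 0.16), did not. Of the 22 genes of protein folding and disposal in the endoplasmic reticulum, where secreted serpins fold, 11 were higher and 11 lower with a median of 0.01. The transcription factor gene Xbp1 (0.49 ± 0.09, adjusted p = 0.120) was the only 1 of them at an unadjusted p under 0.05 (14.8% over all genes). Of 15 tested cofactors, receptors and clients, 9 were higher and 6 lower, and 0 passed the adjusted threshold. Col4a1 (0.59 ± 0.19) and Hrg, the gene of the heparin-binding histidine-rich glycoprotein (-0.22 ± 0.08), had an unadjusted p under 0.05. That is 1 in each direction, near the shares over all genes (6.62% higher and 8.21% lower).

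**Figure D4:**
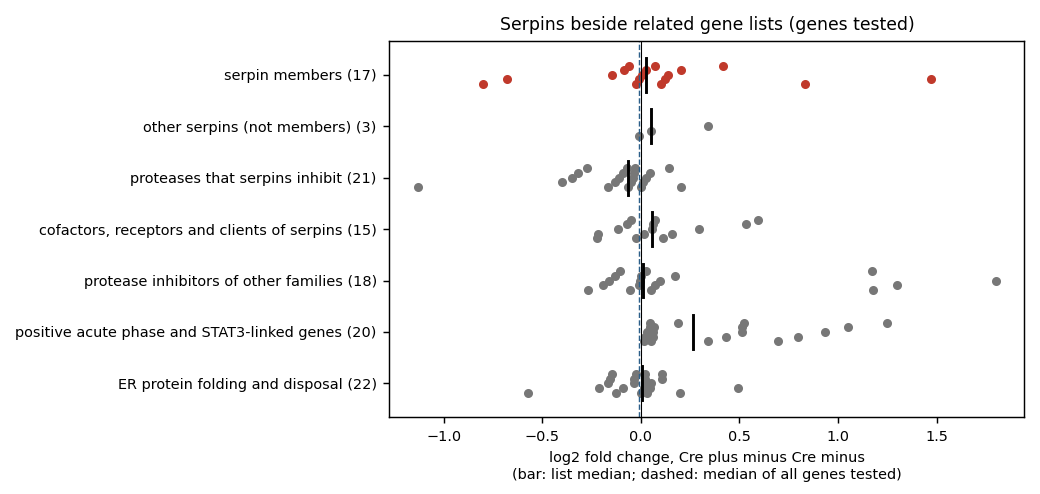
Log2 fold change, Cre plus minus Cre minus (horizontal axis), of each tested gene (points) in the serpin family (red) and in 6 related lists (grey), with the number tested in brackets, list medians as black bars and the median of all genes as a dashed line. The serpins centre on 0.03 with a few genes far to either side, and the acute phase and STAT3-linked genes lie to the right of 0 with a median of 0.26.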

How the data were processed

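Whole-liver total RNA was measured on 6 Affymetrix mouse arrays. The authors deposited log2 values, as their range shows, computed with GCRMA per the submitters' processing notes, whose version the sources do not give. GCRMA corrects background from probe sequence and normalizes arrays to a common distribution. The table holds 45101 probe sets, 64 of them controls, which were left out. By the platform annotation supplied, 34958 probe sets carry 1 symbol, 932 several and 9211 none, and no symbol changed through the Entrez ID against a RefSeq table. A gene was read from its brightest single-symbol probe set above log2 4 in 3 or more of 6 arrays.

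Cre plus was compared with Cre minus by limma 3.58.1 in R 4.3.3 (lmFit, eBayes, no block, two-sided), with Benjamini-Hochberg adjustment over 8554 genes. All adjusted p-values are limma's. Shared probe sets, and further probe sets of a gene, came from a fit over all 15563 kept probe sets. The fit was tested on simulated data. Promoter windows were searched on both strands. Every listed member is named, and other genes by smallest p within their list, up to 4 at an unadjusted p under 0.05. Nr3c1, Proz, F2, F10, Plg, Gzmb, S100a8, S100a9, Ngp, Agt, Serpinb6b, Mpeg1, Col1a1, Col1a2, Col3a1 and Col4a2 were chosen after their values were seen. Members and lists were chosen with earlier results of these data known.

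Alternatives were 2 other normalizations, other filters, probe set rules and variance models, a replicate block, array weights and each array left out.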

Additional observations from a re-analysis of the deposited data

How the results depend on the processing

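No serpin gene passed an adjusted p under 0.05 in the main comparison or in any of the up to 15 alternatives run for each, and 12 of the 17 tested genes kept the direction of their difference in all of them. The 5 that changed sign had small differences: Serpina11 (0.00037 with arrays shifted to a common median, -0.0744 to 0.0396 leaving out arrays), Serpinc1 (-0.00227 with array weights, -0.00842 to 0.0392), Serpina1c (-0.0547 to 0.00596), Serpina7 (-0.353 to 0.132) and Serpinb8 (-0.0454 to 0.0815), the ranges all from leaving out 1 array. Serpins at an unadjusted p under 0.05 and higher in Cre plus, 1 in the main comparison, numbered 2 with no filter, 3 with the filter raised to log2 6, 2 with an intensity trend and robust prior, 0 without _x_at and _s_at probe sets (where Serpina10 has none), 2 with the replicate block, 4 with array weights and 1 to 4 leaving out an array (4 without Cre plus B). Those lower, 2 in the main comparison, numbered 1 with no filter and 0 to 2 leaving out an array, 0 without any of the Cre minus arrays. The labels do not say whether the letters pair the arrays. Deviations from the group means of same-letter arrays correlated at -0.152, -0.102 and 0.019. With 3 arrays in each group these values cannot decide it, so the block is given only as an alternative. Genes past the adjusted threshold in all, 2 in the main comparison, numbered 0 with no filter, 56 with the filter over 6, 0 with the replicate block and 0 to 13 leaving out an array (13 without Cre plus B). Socs3 passed with the filter over 6 (-2.01) and without Cre plus B, with log2 fold changes of -2.14 to -1.75 leaving out an array. With the filters the number of genes tested changed; otherwise the cause was not tested. Signals near the bottom or the top of the scale limit 5 untested members, the alpha-1-antitrypsin genes and Serpina3n.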
